A study of Mus musculus with 6 samples.

Results

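The NRF2, glutathione and thioredoxin defence is the set of genes by which cells sense and remove oxidants and electrophiles. It was taken here as 44 named genes, chosen by function: the control genes of the NRF2 system, detoxification enzymes, the enzymes of glutathione and thioredoxin chemistry, superoxide dismutases and ferritin. The deposited table lists 11866 genes, and 40 of the 44 are among them. Gpx7, Gstt1, Gstt2 and Gstk1 have no row in that table and were not analysed here. All 40 listed members were tested, among 10770 genes with a mean of at least 1 FPKM, a level scaled by exon length and by the fragments of the library.

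The levels were measured by poly(A) RNA-seq of the line HCC3-4, mouse liver tumour cells that came from MYC transgenic animals. The knockdown group (KD) was stably transfected with a short hairpin RNA against Sf3b3, and the control group (PLKO) with the negative control vector pLKO.1-TRC. Each group had 3 libraries, numbered 1 to 3, and both groups carry the MYC-driven tumour background. Sf3b3 encodes a subunit of the SF3b complex, which recognises the branch point of introns, and the comparison asks which transcript levels differ between knockdown and control cells. The labels name neither a second hairpin nor a rescue, so effects of lower Sf3b3 and other effects of the hairpin or of the cell population cannot be told apart. They do not say either whether the 3 libraries of each group were separate cultures, and p-values therefore speak only of the spread among these 6 libraries, which may be technical.

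NRF2, the protein of Nfe2l2, is bound by KEAP1 and passed to the proteasome until oxidants or electrophiles modify KEAP1. It then enters the nucleus, pairs with small MAF proteins and binds antioxidant response elements near genes of glutathione synthesis, thioredoxin recycling, quinone reduction, haem breakdown and iron storage. Because this control acts largely on the protein, the level of the Nfe2l2 transcript does not measure NRF2 activity. Liver cells use the same enzymes to conjugate drugs and products of lipid peroxidation, and many liver tumours carry an active NRF2 pathway.

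Per library, the listed genes held 15140441 to 17566101 reads. Sf3b3, the targeted gene, had 10.3, 9.56 and 13.9 FPKM in KD 1, 2 and 3, against 22.6, 28.7 and 29.2 FPKM in PLKO 1, 2 and 3, and fell by 1.26 in log2 units (SE 0.23, limma adjusted p = 0.037). Across genes, log2 FPKM of KD 3 correlated with PLKO 3 at 0.956, above its correlations with KD 2 (0.944) and KD 1 (0.914), so the libraries numbered 3 stood apart from their groups. Only 4 of 15 hepatocyte and hepatoblast markers were listed (Afp, Apoe, Foxa1 and Rbp4), and albumin was not among them. By contrast, 5 of 8 epithelial and biliary markers were listed. Afp was higher in every KD library (0.814 to 1.98 FPKM, against 0.302 to 0.467 FPKM in PLKO libraries) but too low to be tested. Krt18 was also higher in every KD library (log2 fold change 0.62, limma adjusted p = 0.1). The other listed markers of both kinds overlapped between the groups. Of 8 leukocyte markers 2 were listed, Cd68 and Cd79a; their summed level was 46.9 to 98.9 FPKM in KD libraries and 10.1 to 42.2 FPKM in PLKO libraries. Nearly all of that sum was Cd68 (log2 fold change 1.76, limma adjusted p = 0.075, or 0.0018 with the replicate block described below), while Cd79a rose (3.77, limma adjusted p = 0.0468). Cd79a rested on few reads, 108, 87 and 62 in KD 1, 2 and 3 and 4, 0 and 20 in PLKO 1, 2 and 3. On the log2(FPKM + 1) scale its log2 fold change was 1.75. Of 9 fibroblast and mesenchymal markers 6 were listed, with summed levels of 307 to 654 FPKM in KD libraries and 584 to 753 FPKM in PLKO libraries. Vim made up most of that sum, and its groups overlapped (log2 fold change -0.51, limma adjusted p = 0.29). Pdgfra overlapped too and was above 0 (log2 fold change 0.31, limma adjusted p = 0.55), while Col1a2 was too low to be tested. Col1a1, Col3a1 and Pdgfrb were lower in every KD library (log2 fold changes -1.06, -1.24 and -0.96, limma adjusted p = 0.14, 0.0507 and 0.064), and Col3a1 and Pdgfrb were called with the block (adjusted p = 0.0045 and 0.012). The single endothelial marker listed, Vwf, stayed at or below 0.316 FPKM in all 6. The part of these markers in the results below was not tested, and in bulk RNA fewer cells of a type and less RNA per cell cannot be told apart.

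In the KD cells 3 of the 40 members fell and none rose. The 3 were Nfe2l1, which encodes the NRF2-related factor NRF1, the glutathione transferase gene Gstz1 and the glucuronosyltransferase gene Ugt1a6b. A gene is said to have risen or fallen, or to have been called, where its limma p, adjusted by Benjamini-Hochberg over all 10770 genes, was under 0.05. This held for 2.92% of all genes and for 7.5% of the members. Among all genes 1.79% were called lower and 1.12% higher. Members had a log2 fold change (KD minus PLKO) above 0 in 14 cases and below 0 in 26, with a median of -0.16, beside a median of -0.04 over all genes, of which 52.3% were below 0. Without adjustment 11 members had p under 0.05 in limma, all lower in KD, where 15.9% of all genes were lower and 11.7% higher at that level.

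Equal library numbers may mark pairs, and a fit with that number as a block called 7 members, all lower: Hmox1, Gpx1, Gsta4 and Prdx3 beside the first 3. That fit called 19.3% of all genes, so the members' share of 17.5% was close to the background. Groups that did not overlap, meaning that every KD library lay on 1 side of every PLKO library, were found for 14 members, 12 lower and 2 higher in KD. The corresponding shares were 30.0% and 5.0% of members, against 18.8% and 13.4% of all genes. For a single gene, 3 libraries against 3 cannot give an exact permutation p below 0.1.

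**Figure D1:**
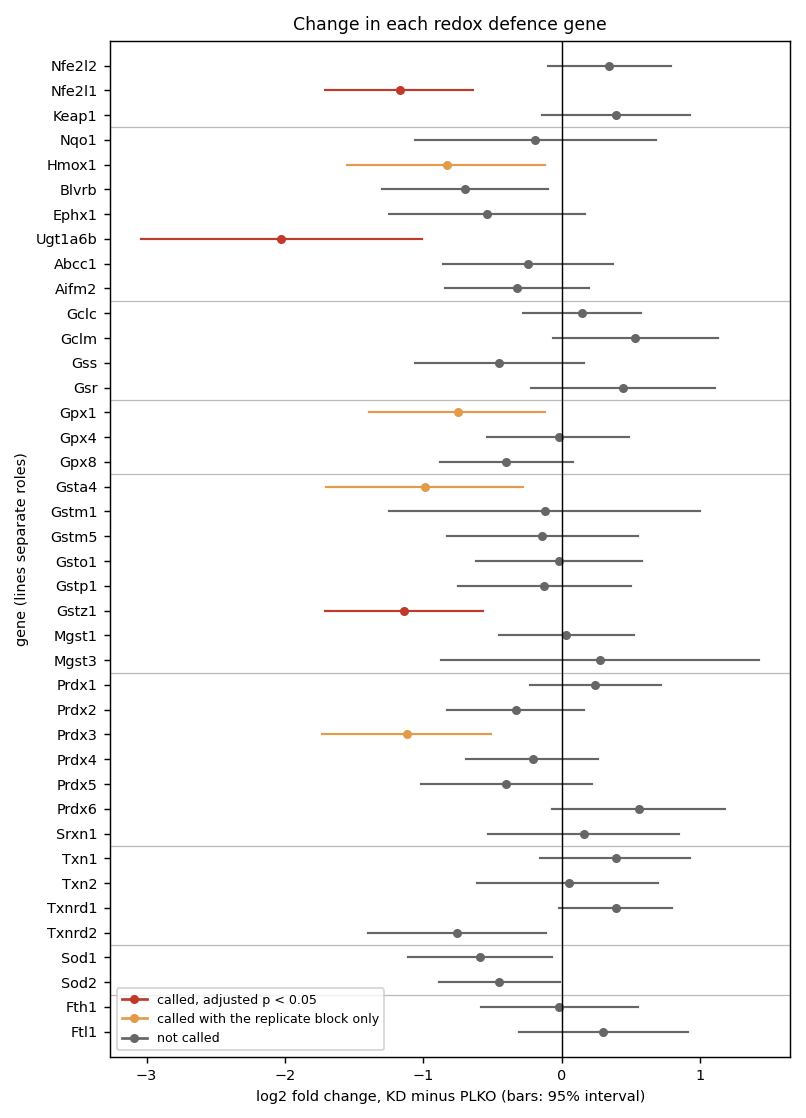
Log2 fold change (KD minus PLKO) of each of the 40 listed members, in rows by role, with its 95% interval from limma. Red marks the 3 called members (Nfe2l1, Ugt1a6b and Gstz1), orange the 4 called only with the replicate block, and grey the others; all coloured points lie left of 0.

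These calls depended on single libraries. Without KD 1, KD 2, PLKO 1 or PLKO 2 limma called no gene in the whole table, although 6, 6, 10 and 8 members then had an unadjusted p under 0.05. Without KD 3 limma called 8 members, without PLKO 3 it called 3 and without both libraries numbered 3 it called 9, every one lower in KD. The background moved with them: those fits called 16.2%, 7.44% and 27.9% of all genes, and 9.39%, 4.16% and 16.0% lower in KD. KD 3 was the highest or lowest KD library for 34 of the 40 members. It was the KD library with the highest level in 18 of the 26 members below 0 and the one with the lowest level in 8 of the 14 above 0. These counts were not made over all genes, so they are not read as a trait of the members. Across all tested genes KD 3 correlated with KD 1 and KD 2 at 0.914 and 0.944, while KD 1 and KD 2 correlated at 0.98.

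**Figure D2:**
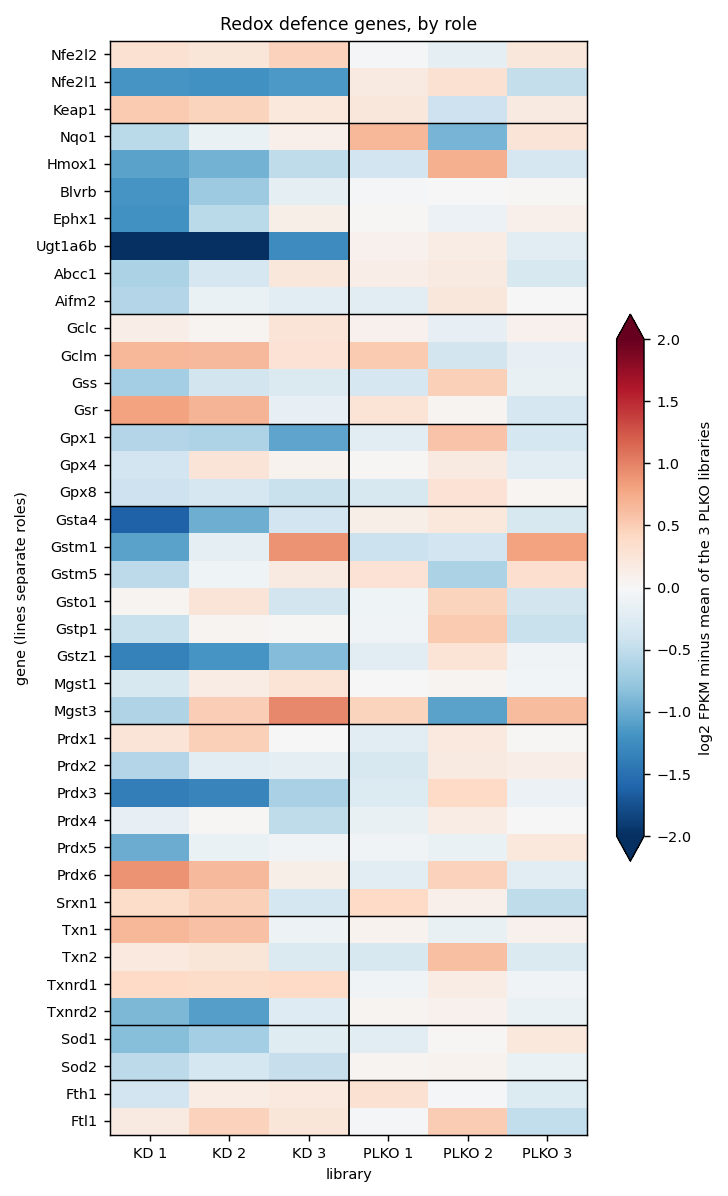
Log2 FPKM of each listed member in each library, minus the mean of the 3 PLKO libraries for that gene; blue is lower and red higher, and the colour scale ends at 2 in both directions. KD 1 and KD 2 look alike in most rows, while KD 3 is paler or opposite in sign for many members, among them Gstm1 and Ephx1.

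Sequence from upstream of the members is shown because NRF2 acts through a short motif near its target genes. The core of the antioxidant response element, TGACNNNGC, was searched on both strands in the 250 bases before each RefSeq start of GRCm38.p6. It was present for 3112 of 27025 genes (11.5%) and for 7 of the 33 listed members with a promoter in that table (21.2%): Nfe2l2, Gclm, Gstm5, Mgst1, Prdx1, Txnrd1 and Sod1. Counted by promoter, since a gene can have several, it was present in 3338 of 32851 promoters (10.2%) and in 7 of the 47 promoters of members (14.9%). Abcc1, Gclc, Gsr, Gsta4, Hmox1, Prdx6 and Ugt1a6b were not in the table. A match is a description of letters, not of a bound site. The windows of 4 of these genes are given 5′ to 3′ on the strand of the gene, with the match in capitals. In these 4 the motif reads on the opposite strand, so its reverse complement appears. Of those not printed, Mgst1 has it on the opposite strand too, and Nfe2l2 and Gstm5 on the strand of the gene. The printed windows lie on GRCm38 at chr3:122245403-122245451 (Gclm), chr4:116685446-116685494 (Prdx1), chr10:82859094-82859142 (Txnrd1) and chr16:90220686-90220734 (Sod1). All are on the plus strand, with 125, 124, 83 and 47 bases between the match and the RefSeq start.
Gclm: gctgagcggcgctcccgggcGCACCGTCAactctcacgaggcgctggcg
Prdx1: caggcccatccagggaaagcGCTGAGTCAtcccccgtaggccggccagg
Txnrd1: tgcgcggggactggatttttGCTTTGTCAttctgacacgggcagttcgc
Sod1: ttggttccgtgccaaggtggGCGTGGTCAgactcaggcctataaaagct

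The log2 fold changes of the 7 members with a match were above 0 in 5 and below 0 in 2, with a median of 0.24. Those of the 26 members whose promoter had none were above 0 in 6 and below 0 in 20, with a median of -0.27. No test was run on this split, and none of the 7 was called. The same split was not made over all genes, and sequence further than 250 bases from a start was not searched. The 7 members without a listed promoter, among them Hmox1, Gclc and Gsr, are in neither group. The 120 bases before the first start of 2 members that fell are also printed, on the strand of the gene. They are chr11:96829969-96830088 for Nfe2l1 (minus strand) and chr12:87147045-87147164 for Gstz1 (plus strand). Neither gene had a match in its 250-base windows, as was so for 26 of the 33 members searched. Ugt1a6b, which also fell, could not be searched.
Nfe2l1: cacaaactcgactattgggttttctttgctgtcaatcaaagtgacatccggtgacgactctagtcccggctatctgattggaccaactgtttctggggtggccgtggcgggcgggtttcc
Gstz1: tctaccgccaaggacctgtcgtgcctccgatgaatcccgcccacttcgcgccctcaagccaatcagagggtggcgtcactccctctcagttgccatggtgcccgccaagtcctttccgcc

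Among the control genes Nfe2l1 fell while Nfe2l2 and Keap1 were not called. NRF1 is held in the endoplasmic reticulum and switches on proteasome genes when proteasome activity is short. Nfe2l1 (ENSMUSG00000038615.17, chromosome 11 from 96817414 to 96829968) had 46.2, 45.2 and 47.3 FPKM in KD 1, 2 and 3, against 118, 129 and 74.7 FPKM in PLKO 1, 2 and 3. The KD libraries lay close together and below every PLKO library, and PLKO 3 was the lowest of its group. The gene fell by 1.17 in log2 units (SE 0.24, limma adjusted p = 0.044), with 3883 to 4514 reads per KD library and 6432 to 11722 per PLKO library. It was called in 12 of 16 alternative settings, and its limma adjusted p ran from 0.0018 to 0.19.

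Nfe2l2 (chromosome 2 from 75675513 to 75704641) had 51.9, 49.7 and 58 FPKM in KD libraries, against 40.8, 36.9 and 48.9 FPKM in PLKO libraries. Every KD library was above every PLKO library, by little: the log2 fold change was 0.34 with a 95% interval from -0.10 to 0.79 (limma adjusted p = 0.29). Keap1, whose product sends NRF2 to the proteasome, had 17.9, 17.1 and 14.5 FPKM in KD libraries and 14.7, 9.38 and 14.2 FPKM in PLKO libraries. Its groups overlapped through KD 3 and PLKO 1, and its log2 fold change of 0.39 had a limma adjusted p of 0.31. In KD cells the level of Nfe2l2 was 1.12, 1.1 and 1.23 times that of Nfe2l1 in FPKM, against 0.346, 0.286 and 0.654 times in PLKO cells. This ratio was computed after the values were seen. Since Nfe2l2 was higher and Nfe2l1 lower in every KD library, it had to separate the groups and adds no result of its own.

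**Figure D3:**
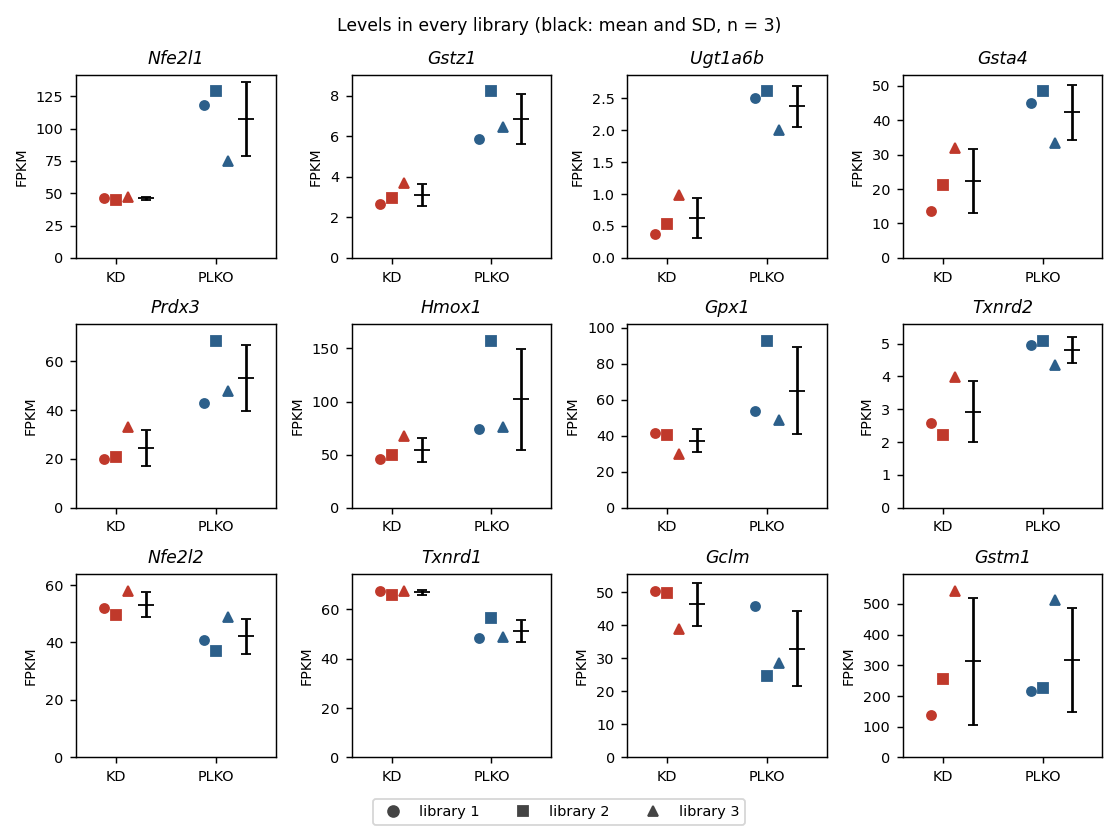
FPKM of 12 members in each library, KD left of PLKO in every panel, with the marker shape giving the library number and the black bars the mean and SD of 3 libraries. Nfe2l1, Gstz1, Ugt1a6b, Prdx3, Hmox1, Gpx1, Gsta4 and Txnrd2 lie lower in all KD libraries, Nfe2l2 and Txnrd1 higher, and Gclm and Gstm1 overlap.

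All 7 genes of quinone, haem and epoxide detoxification and export had log2 fold changes below 0, from -2.03 to -0.19, and 1 of them fell. That gene was Ugt1a6b, an enzyme that attaches glucuronic acid to phenols and drugs. Ugt1a6b (ENSMUSG00000090145.7, chromosome 1 from 88103252 to 88219003) had 0.376, 0.528 and 0.983 FPKM in KD libraries, against 2.51, 2.61 and 2.01 FPKM in PLKO libraries. The groups did not overlap, KD 3 came nearest to the PLKO libraries, and the level was the lowest of all 40 members. It rested on 12, 18 and 39 reads in KD libraries and 106, 102 and 74 reads in PLKO libraries. The gene fell by 2.03 in log2 units (SE 0.45, limma adjusted p = 0.0498). On the log2(FPKM + 1) scale it fell by 1.06. Between 55% and 60.6% of its exonic length is shared with each of the other Ugt1a genes, so how its reads were divided is uncertain.

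Hmox1, which encodes the haem oxygenase that opens haem to biliverdin, had 45.8, 49.9 and 67.4 FPKM in KD libraries, against 73.8, 157 and 75.7 FPKM in PLKO libraries. All KD values were below all PLKO values, and PLKO 2 stood far above PLKO 1 and PLKO 3. The log2 fold change of -0.83 (SE 0.32) was not called by limma (adjusted p = 0.13), was called with the replicate block (adjusted p = 0.0479) and was -0.48 without PLKO 2. Blvrb, a reductase of biliverdin and flavins, had 7.6, 10.4 and 15.1 FPKM in KD libraries and 16.9, 17.4 and 17.5 FPKM in PLKO libraries. Its PLKO libraries were nearly equal and its KD libraries were spread, all lower, with a log2 fold change of -0.70 (SE 0.26, limma adjusted p = 0.13).

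Nqo1, the quinone reductase often used as a readout of NRF2, had 25.9, 34.2 and 40.2 FPKM in KD libraries and 59.7, 19.7 and 44.9 FPKM in PLKO libraries. PLKO 2 was the lowest and PLKO 1 the highest of the 6, so the groups overlapped, and the log2 fold change of -0.19 had a 95% interval from -1.06 to 0.68 (limma adjusted p = 0.77). Ephx1, the microsomal epoxide hydrolase, Abcc1, an exporter of glutathione conjugates, and Aifm2, which keeps ubiquinone reduced, had log2 fold changes of -0.54, -0.24 and -0.32. Their groups overlapped, with limma adjusted p from 0.29 to 0.58.

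None of the 4 genes of glutathione synthesis and reduction was called, in the fit with or without the replicate block. Gclc encodes the catalytic subunit of glutamate-cysteine ligase, the first and limiting step, and had 36.9, 34.8 and 39.9 FPKM in KD libraries against 35.7, 29.8 and 35.5 FPKM in PLKO libraries. Gclm, its modifier subunit, had 50.4, 49.6 and 38.8 FPKM in KD libraries and 45.7, 24.6 and 28.5 FPKM in PLKO libraries. Gsr, which returns oxidised glutathione to its reduced form, had 36.7, 33.8 and 18.8 FPKM in KD libraries and 25.3, 21.9 and 16.7 FPKM in PLKO libraries. For Gclm, PLKO 1 reached the KD range, and for Gsr, KD 3 fell among the PLKO libraries. The log2 fold changes were 0.15 for Gclc, 0.53 for Gclm and 0.44 for Gsr, with limma adjusted p of 0.63, 0.22 and 0.35. Gss, glutathione synthetase, was at -0.45 (limma adjusted p = 0.30).

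Of the glutathione peroxidases, Gpx1 and Gpx8 were lower in every KD library than in any PLKO library, and Gpx4 overlapped between the groups. Gpx1, the abundant selenium enzyme that reduces hydrogen peroxide, had 41.3, 40.4 and 29.9 FPKM in KD libraries, against 53.5, 92.6 and 48.5 FPKM in PLKO libraries. PLKO 2 was again the highest library. The log2 fold change of -0.75 (SE 0.28) had a limma adjusted p of 0.13, or 0.038 with the replicate block, and was -0.47 without PLKO 2. Gpx4, which reduces lipid hydroperoxides within membranes and thereby restrains ferroptosis, had 94.6, 148 and 130 FPKM in KD libraries and 126, 141 and 107 FPKM in PLKO libraries. Its groups overlapped fully, at a log2 fold change of -0.02 (95% interval -0.54 to 0.49, limma adjusted p = 0.96). Gpx8, an enzyme of the endoplasmic reticulum, was at -0.40 (limma adjusted p = 0.25).

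Of the 8 listed glutathione transferases, Gstz1 fell and Gsta4 was called with the replicate block only. Gstz1 isomerises maleylacetoacetate in tyrosine breakdown. Gstz1 (ENSMUSG00000021033.11, chromosome 12 from 87147165 to 87164723) had 2.66, 2.98 and 3.7 FPKM in KD libraries, against 5.85, 8.23 and 6.48 FPKM in PLKO libraries. All KD libraries were below all PLKO libraries, with 207 to 328 reads per KD library and 520 to 698 per PLKO library. It fell by 1.14 in log2 units (SE 0.25, limma adjusted p = 0.0498) and was called in 7 of 15 alternatives. Exons of Pomt2 and Gm6566, both on the opposite strand, cover 9.14% and 3.07% of its exonic length. Whether counting used strand is not given in the sources used here.

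Gsta4 conjugates hydroxynonenal, a product of lipid peroxidation. It had 13.6, 21.3 and 32 FPKM in KD libraries, against 45.1, 48.4 and 33.3 FPKM in PLKO libraries. The groups were separated by little, since KD 3 and PLKO 3 lay next to each other. The log2 fold change of -0.99 (SE 0.32) had a limma adjusted p of 0.092, or 0.032 with the replicate block. Without both libraries numbered 3 it was 0.0067, in a fit that called 27.9% of all genes. Gsta4 was called in 4 of 16 alternatives, and its limma adjusted p ran from 0.0067 to 0.28. The other 6, Gstm1, Gstm5, Gsto1, Gstp1, Mgst1 and Mgst3, had log2 fold changes from -0.14 to 0.28 and limma adjusted p of 0.74 or more. Gstm1, the most abundant of the 8 in mean FPKM, had 139, 256 and 543 FPKM in KD libraries and 217, 225 and 513 FPKM in PLKO libraries. KD 3 and PLKO 3 were both far above the rest, so that its level followed the library number and not the group, with a log2 fold change of -0.12 (SE 0.50, limma adjusted p = 0.89). Reads of Gstm and Gstp genes may be shared with their close copies.

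The peroxiredoxins reduce peroxides, and most of them are recharged by thioredoxin. Their genes were mixed in sign: 3 of these 7 genes, Srxn1 included, were above 0 and 4 below. None was called by limma without the replicate block. Prdx3 is the mitochondrial member. It had 20, 20.7 and 33 FPKM in KD libraries, against 43, 68.3 and 47.7 FPKM in PLKO libraries. Every KD library was lower, with KD 3 nearest to PLKO. The log2 fold change of -1.12 (SE 0.27) missed the threshold in limma (adjusted p = 0.058) and passed it with the replicate block (adjusted p = 0.012). It passed without KD 3 (adjusted p = 0.018) and without both libraries numbered 3 (adjusted p = 0.0078), fits that called 16.2% and 27.9% of all genes. Prdx3 was called in 4 of 16 alternatives, and its limma adjusted p ran from 0.0027 to 0.23.

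Prdx1, the cytosolic peroxiredoxin that NRF2 induces, had 118, 137 and 99.8 FPKM in KD libraries and 85, 113 and 101 FPKM in PLKO libraries. Srxn1, which repairs overoxidised peroxiredoxins, had 32.6, 35.2 and 19.8 FPKM in KD libraries and 33.4, 27.3 and 17.8 FPKM in PLKO libraries. Both overlapped between groups, and their log2 fold changes of 0.24 and 0.16 had limma adjusted p of 0.47 and 0.75. Prdx6 had the highest log2 fold change of the 40 members, 0.56, with a limma adjusted p of 0.22. Prdx2 (cytosol), Prdx4 (endoplasmic reticulum) and Prdx5 (several compartments) were at -0.33, -0.21 and -0.40, with limma adjusted p from 0.35 to 0.54.

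Of the thioredoxins and their reductases none was called. Txnrd1, the cytosolic selenium enzyme that recharges thioredoxin, had 67.5, 65.7 and 67.3 FPKM in KD libraries, against 48.5, 56.4 and 48.8 FPKM in PLKO libraries. Its KD libraries were nearly equal and all above the PLKO libraries, at a log2 fold change of 0.39 (95% interval -0.02 to 0.80, limma adjusted p = 0.20). Txnrd2, the mitochondrial reductase, had 2.57, 2.22 and 3.99 FPKM in KD libraries, against 4.96, 5.08 and 4.35 FPKM in PLKO libraries. It was lower in every KD library, with KD 3 close to PLKO 3. Its log2 fold change of -0.76 (SE 0.28) had a limma adjusted p of 0.13. Without both libraries numbered 3 this was 0.015, in a fit that called 27.9% of all genes. Txnrd2 was called in 3 of 15 alternatives, and its limma adjusted p ran from 0.007 to 0.41.

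Txn1, cytosolic thioredoxin, had 404, 386 and 240 FPKM in KD libraries and 269, 230 and 272 FPKM in PLKO libraries. KD 1 and KD 2 were well above all PLKO libraries while KD 3 lay within them, and the log2 fold change of 0.39 had a limma adjusted p of 0.33. Txn2, its mitochondrial counterpart, was at 0.05 (limma adjusted p = 0.93).

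Both superoxide dismutases, which convert superoxide to hydrogen peroxide, were lower in every KD library without being called. Sod1, the copper and zinc enzyme of the cytosol, had 15.3, 17.3 and 23.4 FPKM in KD libraries, against 23.6, 28.1 and 31.9 FPKM in PLKO libraries. KD 3 and PLKO 1 almost touched, and the log2 fold change was -0.59 (SE 0.23, limma adjusted p = 0.14). Sod2, the manganese enzyme of mitochondria, had 8.31, 9.32 and 8.7 FPKM in KD libraries, against 12.4, 12.6 and 10.9 FPKM in PLKO libraries. The groups were tight and separate, with a log2 fold change of -0.45 (SE 0.19, limma adjusted p = 0.17).

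Ferritin stores iron in a shell of heavy and light chains, and its genes were by far the most abundant members in FPKM. Fth1 ranked 5 and Ftl1 ranked 17 among all listed genes by mean FPKM. Fth1 had 1775, 2584 and 2650 FPKM in KD libraries and 2870, 2291 and 1916 FPKM in PLKO libraries. Ftl1 had 1060, 1278 and 1107 FPKM in KD libraries and 920, 1328 and 663 FPKM in PLKO libraries. The groups overlapped for both chains, with log2 fold changes of -0.02 and 0.30 and limma adjusted p of 0.97 and 0.50. Both genes have processed copies in the genome that can share their reads.

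Taking all 40 members as 1 system, the summed level did not separate the groups. It was 4818, 6212 and 6172 FPKM in KD libraries and 6008, 6151 and 5001 FPKM in PLKO libraries. This was 1.93% of the FPKM of the whole table on average in KD and in PLKO. Without ferritin the sum averaged 2250 ± 233 FPKM in KD libraries and 2391 ± 160 FPKM in PLKO libraries (SD, n = 3 each).

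Further genes of the same pathways were taken from 11 lists by function, of which 97 genes could be tested. Of these, 2 fell (Ccs and Lpcat3), none rose, 33 had a log2 fold change above 0 and 64 below, and the median was -0.28. The share called, 2 of 97, was close to the 2.92% of all genes. With the replicate block 3 were called higher and 19 lower, beside 8.19% and 11.1% of all genes. Ccs, the chaperone that loads copper into SOD1 (chromosome 19 from 4825366 to 4839332), had 8.99, 12.5 and 15.2 FPKM in KD libraries, against 23.8, 42.9 and 29.8 FPKM in PLKO libraries. It was lower in every KD library and fell by 1.39 in log2 units (SE 0.29, limma adjusted p = 0.044). Lpcat3, which inserts polyunsaturated fatty acids into phospholipids (chromosome 6 from 124663027 to 124704418), had 7.66, 9.81 and 12.7 FPKM in KD libraries, against 20.9, 23.8 and 20.8 FPKM in PLKO libraries. The groups were well separated, and the gene fell by 1.15 (SE 0.23, limma adjusted p = 0.044).

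Of the partners and repressors of NRF2, 9 of 11 were above 0, with a median log2 fold change of 0.36. None was called by limma without the block, and 2 were called higher with it. Bach1, which competes with NRF2 for its sites, had 11.2, 9.68 and 13.6 FPKM in KD libraries, against 4.36, 4.44 and 7.83 FPKM in PLKO libraries. All KD libraries were higher, and the log2 fold change of 1.09 (SE 0.28) had a limma adjusted p of 0.063, or 0.0084 with the replicate block. Maff, a small MAF protein gene picked after its values were seen, had 77.5, 79.8 and 90.1 FPKM in KD libraries, against 17, 11.6 and 46.7 FPKM in PLKO libraries. It was higher in every KD library, at 1.97 on the log2 scale (SE 0.44), and its limma adjusted p was 0.0502, or 0.0026 with the block. Sqstm1, the autophagy receptor that can draw KEAP1 away from NRF2, had 245, 247 and 260 FPKM in KD libraries and 347, 683 and 235 FPKM in PLKO libraries. Its groups overlapped at PLKO 3 (log2 fold change -0.61, limma adjusted p = 0.28).

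All 5 tested genes of cystine and cysteine supply were below 0, with a median of -0.79, and none was called by limma without the block, which called 3. Slc7a11, the cystine carrier that feeds glutathione synthesis, had 11, 6.58 and 5.21 FPKM in KD libraries and 29.5, 6.53 and 8.36 FPKM in PLKO libraries. PLKO 1 alone was high, and the groups overlapped because PLKO 2 and PLKO 3 lay within the KD range. The log2 fold change was -0.70 (limma adjusted p = 0.42), and without PLKO 1 it was -0.03. Txnip, which binds and inhibits thioredoxin, had 38.6, 44.5 and 35.2 FPKM in KD libraries, against 95.2, 170 and 45.8 FPKM in PLKO libraries. It was lower in every KD library, at -1.20 (SE 0.41, limma adjusted p = 0.11, or 0.013 with the block), and at -0.75 without PLKO 2. Cat, which encodes catalase, had 59.3, 51.1 and 39.7 FPKM in KD libraries, against 33.9, 31.8 and 35.6 FPKM in PLKO libraries. All KD libraries were higher, by 0.55 in log2 units (SE 0.21, limma adjusted p = 0.13).

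**Figure D4:**
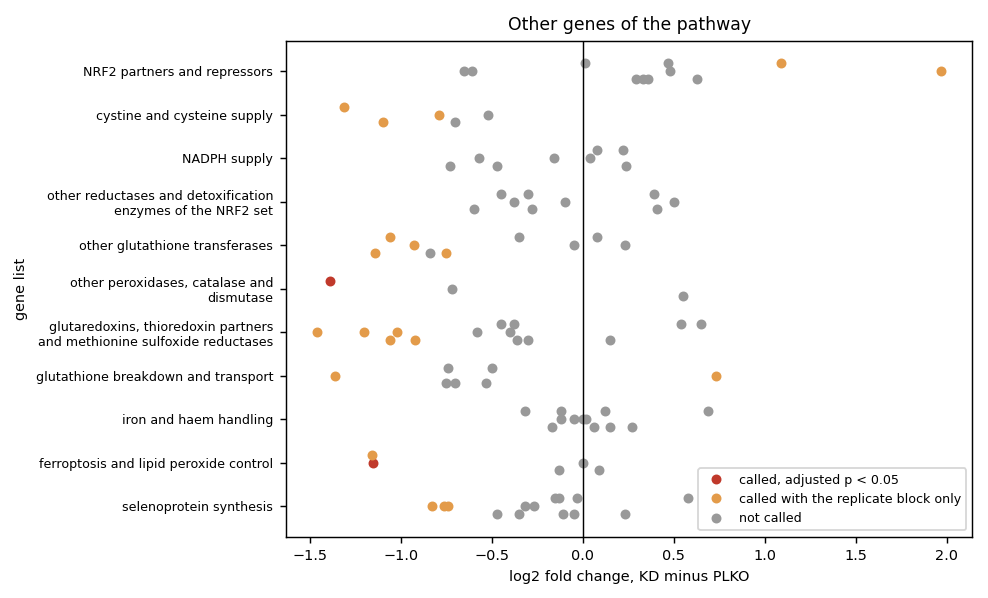
Log2 fold change (KD minus PLKO) of the 97 tested pathway genes that are not members, with 1 row per list; red marks the 2 called genes, orange those called only with the replicate block, and grey the others. Most lists lie left of 0, and the partners and repressors of NRF2 lie mostly right of it.

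**Figure D5:**
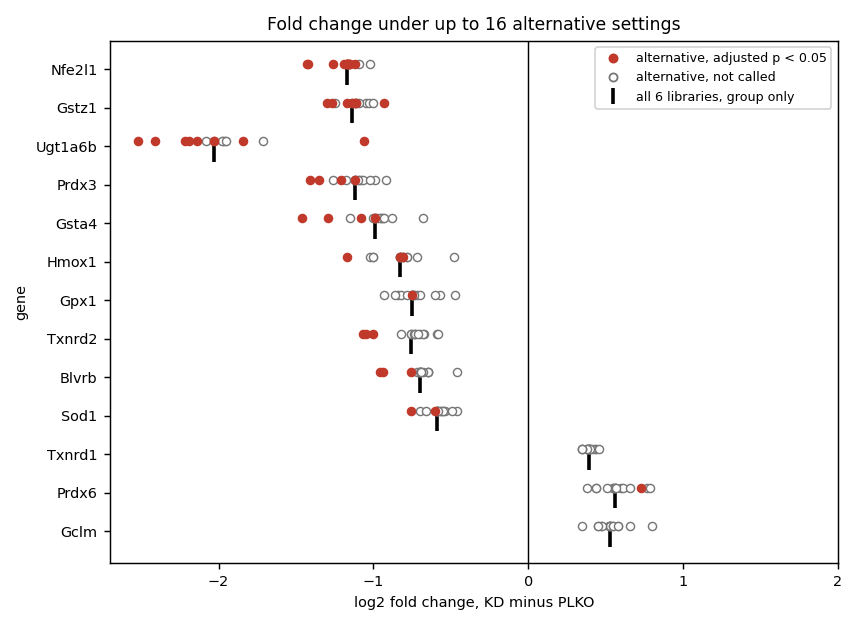
Log2 fold change of 13 members under 16 alternative settings, or 15 for those with a mean under 5 FPKM (filled where limma called the gene, open where it did not), with a black tick for all 6 libraries and the group alone. Every point of a gene stays on its side of 0, while the calls of Nfe2l1, Gstz1 and Ugt1a6b come and go with the setting.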

How the data were processed

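RNA-seq was measured in 6 libraries, KD 1 to 3 and PLKO 1 to 3. The authors deposited 1 table of log2 FPKM per gene and library; the unit was read from its values. FastQC 0.11.7 and the build GRCm38 are named, per the submitters' processing notes. Which aligner and counter made the values, whether strand was used and how genes were filtered is not given in the sources used here. Isoforms are not resolved in the table, so splicing itself was not measured.

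The low values are steps of whole reads on a prior that averages 2 reads per library. With the exonic length of GENCODE M21, 10962 of 11866 genes (92.4%) gave whole reads within 0.01. For the other 904 a length was searched for that gives whole reads, so their reads rest on that search. These reads serve as depth and enter 1 alternative, limma's voom. The prior shrinks fold changes of genes with few reads.

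limma 3.58.1 (R 4.3.3) with a mean-variance trend was fitted to the deposited log2 values of the 10770 genes with a mean of at least 1 FPKM, with the group as the model and 4 residual degrees of freedom. Tests are two-sided and Benjamini-Hochberg adjusted over these genes. Each FPKM printed is 2 raised to the deposited log2 value. Scripts were checked on simulated data.

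The members and lists were chosen with earlier results of these data known. Members were given in full where limma called them with or without the block, where the groups did not overlap and the log2 fold change was at least 0.5 in size, or where they define a role. Of the other pathway genes, called ones and Slc7a11, Sqstm1, Bach1, Txnip and Cat were named.

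Deviations from the group means correlated at 0.181, 0.293 and 0.497 for the libraries numbered 1, 2 and 3. All are above the limit of 0.1, so equal numbers were taken as pairs in the fits with a replicate block. No label states this pairing, which rests on the data, and it is not clean: KD 2 correlated with PLKO 1 at 0.275 and KD 1 with PLKO 2 at 0.299. This crossed pairing passes the same limit, so the limit cannot tell which of the libraries numbered 1 and 2 belong together. Deviations within a group cancel out, so the match of the libraries numbered 3 also raises the correlations among the libraries numbered 1 and 2.

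Array weights used limma's gene-by-gene method, because its REML method did not converge. Promoters are from RefSeq (GRCm38.p6).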

Additional observations from a re-analysis of the deposited data

How the results depend on the processing

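Over 16 alternatives, 596 of 637 member values kept their side of the threshold, 18 lost a call and 23 gained one. All 18 lost calls belong to the 3 members called first. Nfe2l1 was called in 12 of 16 alternatives, Ugt1a6b in 9 of 15 and Gstz1 in 7 of 15. Of the 596, 565 also kept their sign and 31 changed it. The 31 belong to 12 members and none was called, while 28 members held their sign in all alternatives. The counts moved more. With the replicate block as an assumed pairing, limma called 2080 genes in place of 314, 7 members in place of 3 and 22 other pathway genes in place of 2. With array weights these counts were 3599 (33.4% of all genes), 11 and 31, and 2 of the 11 members, Prdx6 and Txn1, were then higher. The weights of KD 1, 2 and 3 were 1.071, 5.633 and 0.371, so the KD side of that fit rested mostly on KD 2. Without both libraries numbered 3 the counts were 3009, 9 and 30. Leaving out 1 library gave 0 to 1744 genes, 0 to 8 members and 0 to 17 other pathway genes: 0 of each without KD 1, KD 2, PLKO 1 or PLKO 2, when 1818, 1793, 2217 and 2315 genes had an unadjusted p under 0.05. Members called came to 1 with a mean of at least 5 FPKM, which drops Gstz1 and Ugt1a6b, to 1 with median centring and to 1 with voom on the recovered reads, Nfe2l1 in each case. The cause of the other shifts was not tested. With 3 libraries a group and 12 to 106 reads per library, Ugt1a6b is the member whose level the depth limits most.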

Other observations

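Pairs of members that do the same task in the cytosol and in mitochondria were set side by side after their values were seen, as a description with no test. Prdx1 stood to mitochondrial Prdx3 at 5.87, 6.61 and 3.03 in KD libraries, against 1.98, 1.65 and 2.12 in PLKO libraries, as ratios of FPKM. Txnrd1 stood to mitochondrial Txnrd2 at 26.3, 29.6 and 16.9 in KD libraries, against 9.77, 11.1 and 11.2 in PLKO libraries. Both ratios were higher in every KD library, and KD 3 was the nearest to PLKO in each. Txnrd1 was higher and Txnrd2 lower in every KD library, so their ratio had to separate and adds no result of its own. Prdx1 overlapped between the groups, and Prdx3 was lower in every KD library. How often ratios of other gene pairs separate was not counted. The ratios of Txn1 to Txn2 (10.8 to 13.1 in KD, 5.61 to 12.3 in PLKO) and of Sod1 to Sod2 (1.84 to 2.69 in KD, 1.9 to 2.91 in PLKO) overlapped between the groups. Transcripts encoded by the mitochondrial genome, 14 genes, made up 6.53%, 8.36% and 7.6% of the summed FPKM in KD libraries and 5.99%, 4.89% and 7.22% in PLKO libraries, which also overlap.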
